A study of Mus musculus with 4 samples.

Results

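Integrins are the cell surface receptors that tie a cell to its extracellular matrix, each built from an alpha and a beta subunit that must pair to reach the membrane. Laminins are matrix proteins of the basement membrane, each a trimer of an alpha, a beta and a gamma chain, and they are ligands of several integrins. In the mammary gland, epithelial cells rest on a laminin-rich basement membrane through integrins and hemidesmosomes, while receptors of fibronectin and vitronectin bind the interstitial matrix. Integrin and laminin genes were taken from the array annotation by symbol, and 35 genes had a probe set listed under that symbol alone, 25 integrin subunits and 10 laminin chains, out of 19938 such genes in all. Each had 1 such probe set.

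Each of 4 clonal tumor cell lines was hybridized to 1 Affymetrix mouse gene array. M1 and M2 are mesenchymal-like clones, sorted as cells low in neu and CD24 and grown in the mammary epithelial medium MEGM with 2% serum, pituitary extract, epidermal growth factor, insulin and hydrocortisone. E1 and E2 are epithelial clones, sorted as cells high in neu and CD24 and grown in RPMI with 20% serum. All lines came from the same spontaneous mammary tumor of a female FVB/N mouse whose MMTV/neu transgene expresses rat neu (ErbB2) from the mammary tumor virus promoter. M2, E2 and E1 formed tumors in the mammary fat pad and M1 did not. Each line is 1 clone, no line was repeated, and type of line and culture medium cannot be told apart here.

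Levels are the deposited log2 expression values, whose median over all arrays was 6.78, and differences are log2 differences of M minus E unless stated. The line medians lay between 6.75 and 6.85. The types were tested with limma over 23410 probe sets with a gene symbol, with Benjamini-Hochberg adjustment and a threshold of 0.05. A p-value reflects how far clones of the same type lie apart, with that spread drawn towards a value shared over all probe sets. Standard errors and intervals use the same spread. Of 7 epithelial markers, 5 were lower in M cells and 0 higher, among them Cdh1 (E-cadherin) and Epcam, while the keratins Krt8 and Krt18 were not called. Of 7 mesenchymal markers, 5 were higher and 0 lower, among them Zeb1 and Twist1. Vim (vimentin) and Snai2 were not called (limma adjusted p = 0.0896 and 0.0574). Vim was at 13.72 in M1 and 13.82 in M2, against 13.10 in E2 and 12.79 in E1. Of 6 myoepithelial markers 0 were called.

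M cells differed from E cells by large amounts in a small set of subunits, while 22 of the 35 had type means less than 2-fold apart. limma called 7 of the 35 genes, 2 higher in M cells (Itga5 and Itgb2) and 5 lower (Lama4, Itgb3, Itgb6, Itgb8 and Itga8). Over all probe sets it called 3.73%, 1.72% higher and 2.02% lower. Another 6 genes (Itga1, Itga2, Itga7, Itga10, Lama5 and Lamb3) had means at least 2-fold apart without being called, so that 13 of 35 passed 2-fold, against 9.73% of all probe sets. In 9 genes every line lay below the median of all values, at levels of 5.29 to 6.50, and none of these differed by more than 0.22 between the types. The median absolute difference was 0.35 over the 35 genes and 0.16 over all probe sets. In 5 of the 7 called genes the lower type lay below the median of all values in both lines, and since no background level comes with the values, a fold there is only the ratio of the listed values. Without E2 or without E1 limma called 0 of the 35 genes, with 10 at an unadjusted p under 0.05 each time, and 0 of all probe sets, with 2651 and 2579. With values below the median raised to it, limma called Itgb3 alone of the 7 and 0.953% of all probe sets. Itga8 and Itgb8, above the median in every line, kept their differences of -1.74 and -3.12 there and were not called either (limma adjusted p = 0.141 and 0.159). Probe sets below the median in every line have no spread under this floor and stayed in the fit. A call lost there need not come from a gene's own values.

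**Figure D1:**
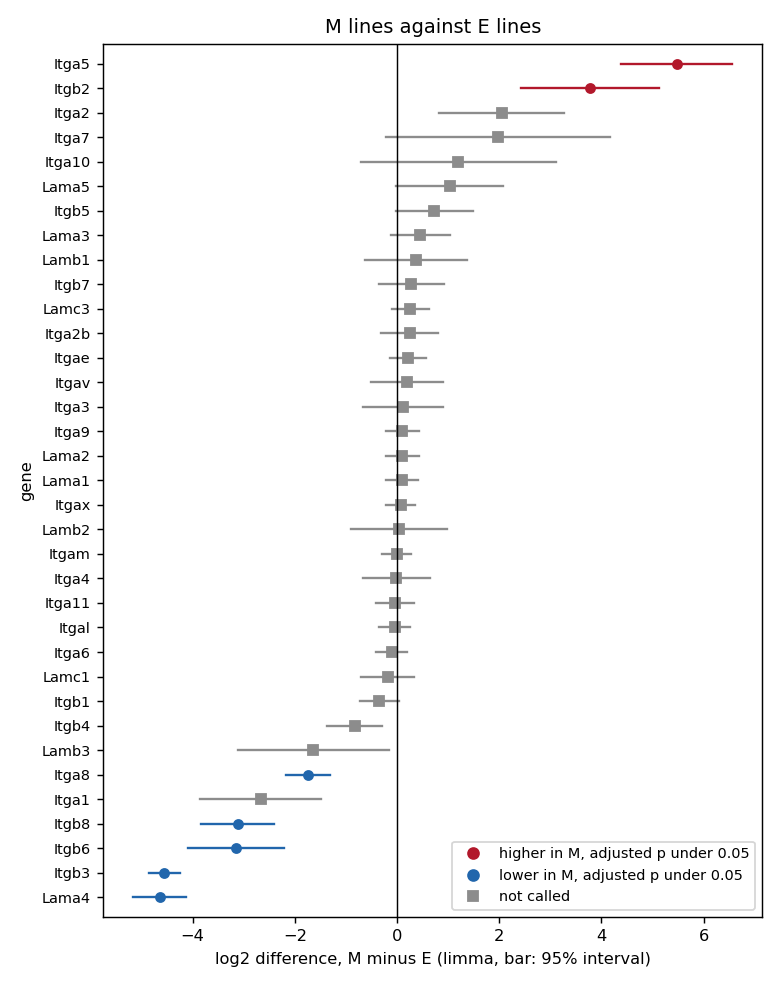
Log2 difference of M minus E for each of the 35 genes (points), with the 95% interval from limma (bars). Circles are the 7 genes called, from Itga5 at 5.47 to Lama4 at -4.64, and squares are the 28 not called.

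Among the laminin chains, Lama4 separated the types. Lama4, the alpha chain of laminins in vessel walls, muscle and other mesenchymal tissue, had log2 levels of 6.42 in M1 and 6.60 in M2, against 10.96 in E2 and 11.35 in E1. Both M lines thus lay far below both E lines, with no overlap. The difference was -4.64 (standard error 0.18, limma adjusted p = 0.00359), a 25.0-fold ratio of the listed values. Both M lines lay below the median of all values. As these are RNA levels of whole cultures, fewer cells with the transcript and less RNA per cell cannot be told apart.

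Lama5, the alpha chain of most adult epithelial basement membranes, ran the other way, at 10.89 in M1 and 11.85 in M2, against 10.18 in E2 and 10.52 in E1. The groups did not overlap, but the difference of 1.03 did not pass the test (standard error 0.38, limma adjusted p = 0.287). Its interval ran between -0.02 and 2.08. Lama3, the alpha chain of the laminin that anchors hemidesmosomes, lay between 6.07 and 6.87 in the 4 lines, with a difference of 0.46 (limma adjusted p = 0.388). Lama1 and Lama2, the chains of the embryonic and the muscle laminins, had levels between 5.64 and 6.47 and differences of 0.10 each.

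Lamb3, the beta chain that pairs with Lama3 in hemidesmosome laminin, had levels of 7.77 in M1 and 7.21 in M2, against 8.45 in E2 and 9.80 in E1. The E lines were both higher but lay 2.55-fold apart, E2 below E1, and the difference of -1.64 did not pass (standard error 0.53, limma adjusted p = 0.237). The common chains Lamb1 and Lamc1, which occur in most laminins of the body, were at similar levels in the 2 types. Lamb1 was at 10.29 in M1 and 11.02 in M2, against 9.96 in E2 and 10.60 in E1. Lamc1 was at 11.11 and 11.16 in M1 and M2, against 11.10 and 11.53 in E2 and E1. Both genes overlapped between the types, with differences of 0.38 (interval -0.62 to 1.37) and -0.18 (interval -0.70 to 0.33), the second of which took the opposite sign, at 0.04, without E1. Lamb2 and Lamc3, the remaining chains, had differences of 0.03 and 0.26 and were not called. The 10 laminin chains thus held 1 call, lower in M cells, with a median difference of 0.10 against 0.00 over all probe sets.

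**Figure D2:**
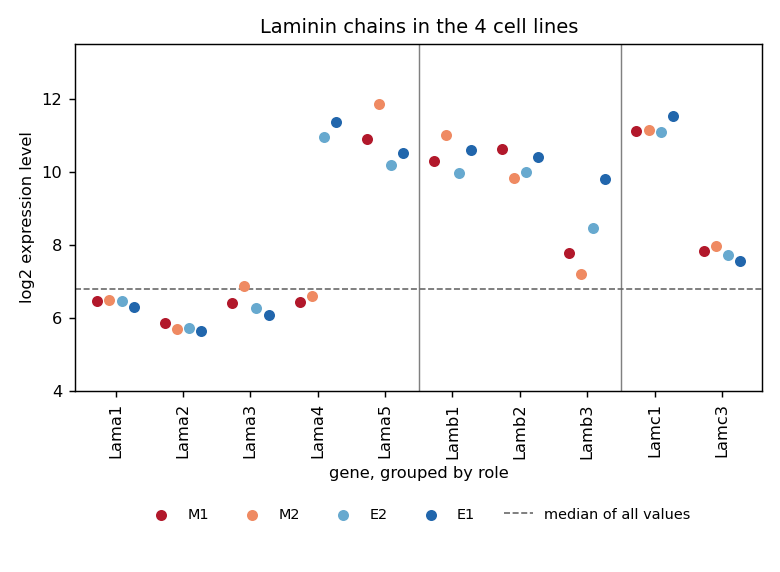
Log2 expression level of the 10 laminin chains in each cell line, 1 point per line, with alpha, beta and gamma chains divided by vertical lines and the median of all values (6.78) dashed. For Lama4 both M lines lie at 6.60 or below and both E lines at 10.96 or above.

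Most calls among the integrins were subunits that bind the RGD motif of fibronectin, vitronectin and latent TGF-beta. Of 8 such subunits, 1 was higher in M cells and 4 were lower. Itga5, the alpha chain of the main fibronectin receptor, which pairs with Itgb1 alone, had log2 levels of 10.71 in M1 and 11.76 in M2, against 5.86 in E2 and 5.68 in E1. Both E lines lay below the median of all values and both M lines far above it. The difference was 5.47 (standard error 0.39, limma adjusted p = 0.0123), a 44.3-fold ratio of the listed values.

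Itgb3, Itgb6 and Itgb8, which pair with Itgav, were lower in M cells. Itgb3, the beta chain of the vitronectin receptor, was at 6.33 in M1 and 6.29 in M2, against 10.92 in E2 and 10.82 in E1. Lines of the same type lay within 0.10 of each other, and both M lines lay below the median of all values. The difference was -4.56 (standard error 0.11, limma adjusted p = 0.00252), a 23.5-fold ratio of the listed values. Itgb6, an epithelial subunit whose receptor activates latent TGF-beta, was at 4.73 in M1 and 5.22 in M2, against 7.75 in E2 and 8.50 in E1. Its difference was -3.15 (standard error 0.33, limma adjusted p = 0.0287), with both M lines below the median of all values, and it was not called among the brighter probe sets, where its mean level leaves it out. Itgb8, whose receptor also activates latent TGF-beta, was at 7.87 in M1 and 7.30 in M2, against 10.54 in E2 and 10.87 in E1. That gene was above the median of all values in every line, and its difference was -3.12 (standard error 0.25, limma adjusted p = 0.0161).

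Itgb5, another partner of Itgav, was not called. It had levels of 12.70 in M1 and 12.00 in M2, against 11.59 in E2 and 11.65 in E1, with a difference of 0.73 (interval -0.02 to 1.48, limma adjusted p = 0.290). Itgav itself had overlapping levels, at 11.94 and 12.50 in M1 and M2, against 11.86 and 12.20 in E2 and E1. Its difference was 0.19 (interval -0.51 to 0.90). Of the 4 beta partners described, 3 were therefore lower in M cells while the difference of the shared alpha chain did not pass the test.

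Itga8, the alpha chain of the nephronectin receptor, which pairs with Itgb1, was at 11.09 in M1 and 10.94 in M2, against 12.61 in E2 and 12.91 in E1. All 4 lines lay well above the median of all values, and the difference of -1.74 passed (standard error 0.16, limma adjusted p = 0.0199), or 3.34-fold lower in M cells. Itga2b, the platelet subunit, was between 6.70 and 7.26 in every line and was not called.

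Promoter sequence is shown for called genes, since Zeb1, a repressor of epithelial genes that binds the E-box CAGGTG, was among the markers higher in M cells. RefSeq promoter windows (GRCm38.p6) matched 23 of the 35 genes, with 26 start sites, and 4 of the 7 called genes, with 5 start sites. The called genes Lama4, Itgb3 and Itgb2 had no window and were not searched. The 100 bases before each start are printed in the direction of the gene, all from the minus strand, with CAGGTG or its reverse complement CACCTG in capitals. The windows are chr15:103366792-103366891 for Itga5, chr2:12301945-12302044 for Itga8, chr2:60722604-60722703 and chr2:60673694-60673793 for the distal and the proximal start of Itgb6, and chr12:119238277-119238376 for Itgb8.
Itga5: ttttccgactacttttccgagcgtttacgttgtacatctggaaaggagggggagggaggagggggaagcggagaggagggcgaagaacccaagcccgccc
Itga8: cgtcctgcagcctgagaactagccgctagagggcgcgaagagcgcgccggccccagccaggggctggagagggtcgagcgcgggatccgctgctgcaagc
Itgb6 distal: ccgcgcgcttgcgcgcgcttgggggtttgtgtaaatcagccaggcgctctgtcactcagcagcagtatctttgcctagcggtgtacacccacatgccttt
Itgb6 proximal: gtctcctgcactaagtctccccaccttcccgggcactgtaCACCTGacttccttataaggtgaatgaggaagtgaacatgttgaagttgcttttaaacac
Itgb8: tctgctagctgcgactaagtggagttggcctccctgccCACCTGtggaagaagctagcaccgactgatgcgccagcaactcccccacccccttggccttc

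The E-box began 62 bases before the start of Itgb8 and 60 bases before the proximal start of Itgb6. Within the 250 bases before the start, searched on both strands, Itga5, Itga8 and the distal start of Itgb6 held no match. Of the 26 start sites of integrin and laminin genes, 8 (30.8%) had a match, against 17.2% of all 32851 windows in the table. The matches outside Itgb6 and Itgb8 lay before Itga3, Itga9, Itga11, Itgb5, Lama5 and Lamb3. None of those genes was called, and their differences ran from -1.64 (Lamb3) to 1.03 (Lama5). These matches are letters in a window, and binding was not measured.

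The collagen-binding alpha subunits, partners of Itgb1, held large differences that did not pass. Itga1, a receptor chain for basement membrane collagen, was at 5.86 in M1 and 5.52 in M2, against 7.80 in E2 and 8.92 in E1. Its difference was -2.67 (standard error 0.43, limma adjusted p = 0.0685). Itga2, a receptor chain for fibrillar collagen, ran opposite, at 9.54 in M1 and 10.34 in M2, against 8.34 in E2 and 7.44 in E1. The difference of 2.05 had an interval of 0.82 to 3.27 and a limma adjusted p = 0.119. The groups overlapped in neither gene, and in each the E lines lay about as far apart as the M lines or farther. Itga1 and Itga2 are neighbours on chromosome 13, with 1 other protein-coding gene among them in RefSeq. Itga10 and Itga11, the other subunits of this kind, had differences of 1.20 and -0.04, and that of Itga10 came from M2, as given with the comparison of M1 and M2.

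Of the laminin-binding subunits, 0 of 4 were called, and 3 of them lay between 10.98 and 12.11 in every line. Itga6, which forms the hemidesmosome integrin with Itgb4, was at 11.78 in M1 and 11.84 in M2, against 11.95 in E2 and 11.88 in E1. Its interval ran between -0.41 and 0.19, which leaves out a change of 2-fold in either direction. Itgb4 was at 10.98 and 11.40 in M1 and M2, against 12.11 and 11.93 in E2 and E1, with a difference of -0.83 (interval -1.36 to -0.30, limma adjusted p = 0.135). Itga3, a laminin receptor of epithelia, overlapped between the types, with a difference of 0.12 (interval -0.67 to 0.91). Itgb1, the beta chain that most alpha subunits of these cells need, was at 11.91 in M1 and 11.72 in M2, against 12.06 in E2 and 12.25 in E1. Both M lines lay below both E lines by a small amount, with a difference of -0.35 (interval -0.73 to 0.04, limma adjusted p = 0.327).

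Itgb2, the beta chain of the leukocyte integrins, was the other subunit higher in M cells. It had log2 levels of 9.41 in M1 and 10.73 in M2, against 6.19 in E2 and 6.40 in E1. The difference was 3.78 (standard error 0.48, limma adjusted p = 0.0445), a 13.7-fold ratio of the listed values. Its alpha partners Itgal, Itgam and Itgax, known from lymphocytes, macrophages and dendritic cells, lay between 5.29 and 5.86 in every line and had differences of -0.04, -0.01 and 0.07. Itgad, a further partner outside the symbols chosen and looked up because of this result, had 2 probe sets with differences of 0.30 and -0.06 (limma adjusted p = 0.529 and 0.892). Of 7 leukocyte markers 0 were called, and 4 lay below the median of all values in every line. The leukocyte marker Ptprc (Cd45) was at 5.88 in M1 and 5.54 in M2, against 5.59 in E2 and 5.51 in E1. The macrophage gene Lyz2 was at 8.91 in M1 and 6.57 in M2, against 5.65 in E2 and 5.08 in E1. Its difference was 2.38 (limma adjusted p = 0.283). Whether leukocytes in the cultures carried the Itgb2 signal was not tested. The log2 of the summed level of the 7 markers was 10.66 and 9.74 in M1 and M2, against 11.15 and 9.73 in E2 and E1. The brightest of them was Cd14, at 9.77 in M1 and 8.92 in M2, against 10.91 in E2 and 9.12 in E1. Without Cd14, a sum added after its values were seen, the log2 sums were 9.54 and 8.53 in M1 and M2, against 8.41 and 8.21 in E2 and E1. The brightest of the remaining markers in M1 was Lyz2, at 8.91. Of 6 endothelial and platelet markers 0 were called. The remaining subunits of leukocytes and other cells, Itgae, Itgb7, Itga4 and Itga9, had differences between -0.01 and 0.28 and were not called.

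**Figure D3:**
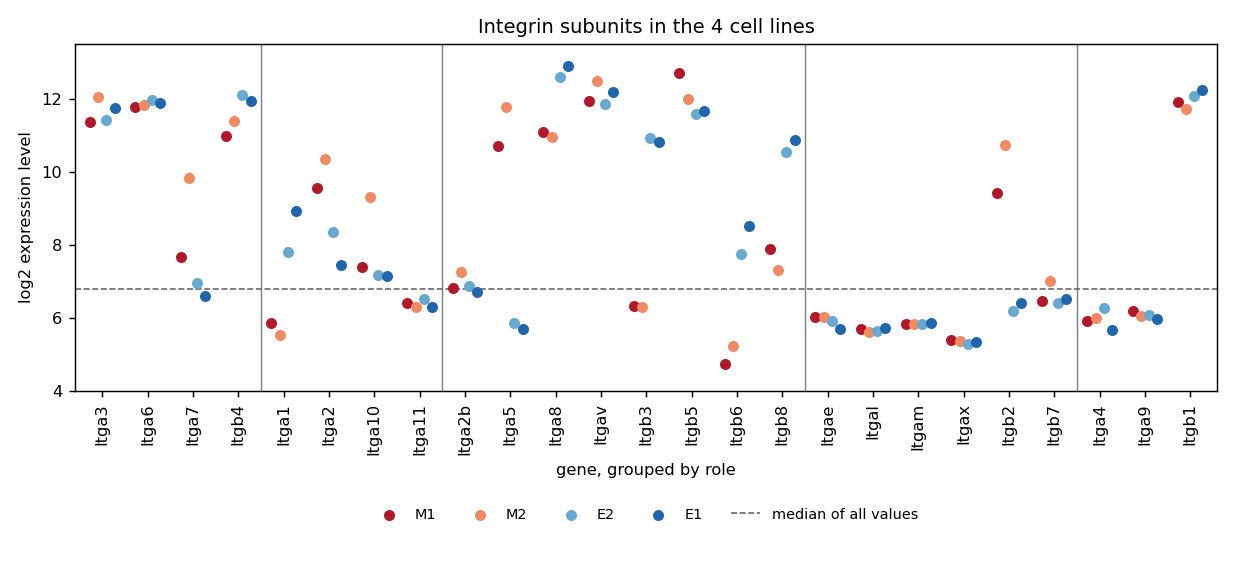
Log2 expression level of the 25 integrin subunits in each cell line, 1 point per line, with laminin-binding, collagen-binding, RGD-binding, leukocyte and other subunits divided by vertical lines from left to right and the median of all values (6.78) dashed. Itga5 and Itgb2 are higher in both M lines, and Itgb3, Itgb6, Itgb8 and Itga8 in both E lines.

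Clones of the same type also differed from each other, and these comparisons set 1 array against another and carry no test. M1 and M2 were at least 2-fold apart in 4 of 35 genes, all lower in M1, against 5.86% of all probe sets (2.64% lower in M1 and 3.22% higher). With each array centred on its median the count was 3 of 35. Itga7, the alpha chain of the muscle laminin receptor, had log2 levels of 7.66 in M1 and 9.82 in M2, beside 6.94 in E2 and 6.58 in E1. Itga10, a collagen receptor chain of cartilage, was at 7.40 in M1 and 9.30 in M2, beside 7.16 in E2 and 7.14 in E1. M1 thus lay nearer to the E lines than to M2 for both genes, which were 4.46-fold and 3.74-fold lower in M1 than in M2. Between the types, Itga7 had a difference of 1.98 and Itga10 of 1.20 (limma adjusted p = 0.321 and 0.499), and without M1 the differences were 3.06 and 2.15 (limma adjusted p = 0.00894 and 0.00781). That fit sets M2 alone against E2 and E1, takes its spread from those E lines and called 7.52% of all probe sets. Itgb2 and Itga5 were 2.48-fold and 2.07-fold lower in M1 than in M2, with both M lines far above both E lines.

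E2 and E1 were at least 2-fold apart in 2 of 35 genes, both lower in E2, against 2.24% of all probe sets (0.987% lower in E2 and 1.25% higher). Lamb3 was 2.55-fold and Itga1 2.16-fold lower in E2 than in E1. The median absolute difference of the 35 genes was 0.42 between M1 and M2 and 0.21 between E2 and E1, against 0.18 and 0.14 over all probe sets. The line that formed no tumor, M1, was also set against M2, E2 and E1 together. limma called 0 of the 35 genes there, with 1 at an unadjusted p under 0.05 and a lowest adjusted p = 0.551, and it called 0.094% of all probe sets. The spread there comes from M2, E2 and E1 and so includes the difference of M2 from the E lines. Genes that separate the types could therefore hardly be called, and the count of 0 decides nothing about M1. That test rests on the spread of the other lines, since M1 has 1 array. Without M2 it called 9 of the 35 genes and 8.03% of all probe sets, and the comparison is then one of M1 with the epithelial lines, across type and medium.

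**Figure D4:**
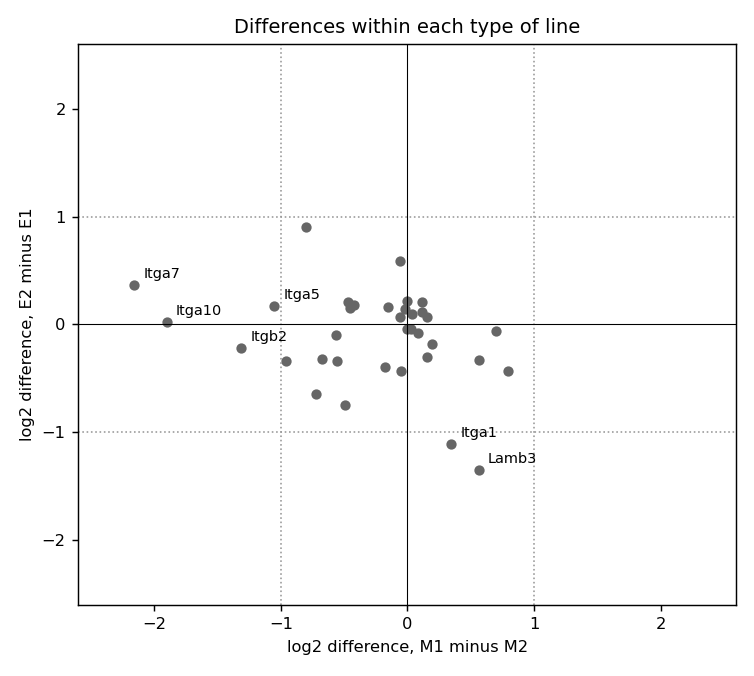
Log2 difference of M1 minus M2 (horizontal) and of E2 minus E1 (vertical) for the 35 genes, with dotted lines at 2-fold. Itga7, Itga10, Itgb2 and Itga5 are at least 2-fold lower in M1, and Lamb3 and Itga1 at least 2-fold lower in E2.

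Ligands, basement membrane partners and cytoplasmic adaptors of these receptors were read from the same fit as 5 lists with 56 measured genes. Of 12 basement membrane partners of laminin, 0 were higher in M cells and 4 lower, with a median difference of -0.54. Over all probe sets limma called 1.72% higher and 2.02% lower, with a median difference of 0.00. The collagen IV chains Col4a1 and Col4a2, which form the network that laminin joins, had differences of -2.72 and -2.97 (limma adjusted p = 0.0134 and 0.0181). Col4a2 was at 6.93 in M1 and 7.10 in M2, against 9.67 in E2 and 10.31 in E1. Agrn, a proteoglycan that binds laminin, and Col15a1, a collagen of the basement membrane zone, were lower by 2.24 and 1.46 on the log2 scale, while Col18a1 had a difference of -2.91 and did not pass (limma adjusted p = 0.0645). Hspg2 (perlecan), a proteoglycan of the basement membrane, was at 9.35 in M1 and 10.38 in M2, against 7.43 in E2 and 7.31 in E1, so that its difference of 2.49 ran opposite and did not pass either (limma adjusted p = 0.0635).

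Of 10 other matrix ligands of integrins, 0 were higher and 2 lower, against 1.72% and 2.02% of all probe sets. Tnc, the matrix glycoprotein tenascin C, was at 5.40 in M1 and 5.75 in M2, against 11.01 in E2 and 11.89 in E1. Its difference of -5.88 was the largest of the 5 lists (standard error 0.35, limma adjusted p = 0.00805). Thbs1 (thrombospondin), a ligand of several integrins, had a difference of -0.94 (limma adjusted p = 0.0422). Edil3, an RGD ligand of Itgav receptors, was at 9.06 in M2 and between 4.60 and 4.90 in the other lines, and was not called. Postn, a matricellular ligand, had a difference of -1.56 and was not called. Fn1 (fibronectin), the ligand of the Itga5 receptor, had levels of 13.36 in M1 and 13.27 in M2, against 12.74 in E2 and 13.57 in E1, which overlapped between the types.

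Of 24 activators and adaptors, 3 were higher in M cells and 1 lower, with a median difference of 0.20. The shares over all probe sets were 1.72% and 2.02%, and the median difference was 0.00. Parvb, an adaptor that joins integrin-linked kinase to actin, was at 10.86 in M1 and 11.59 in M2, against 6.43 in E2 and 6.37 in E1, with a difference of 4.83 (standard error 0.28, limma adjusted p = 0.00721). Tns1 and Tns2, tensins that bind beta tails and actin, had differences of 4.80 and 3.52 (limma adjusted p = 0.00284 and 0.0129). Fermt1, the kindlin of epithelia, was at 5.38 in M1 and 5.50 in M2, against 8.95 in E2 and 8.43 in E1, with a difference of -3.25 (standard error 0.21, limma adjusted p = 0.01). Of 5 hemidesmosome partners, Plec (plectin), which links Itgb4 to keratin filaments, was higher by 1.35 (limma adjusted p = 0.0211), and Dst and Cd151, at 0.35 and 0.21, were not called. Of 5 laminin receptors other than integrins, 0 were called, with Sdc1 at -0.92, Sdc4 at -0.35 and Dag1 at -0.30.

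**Figure D5:**
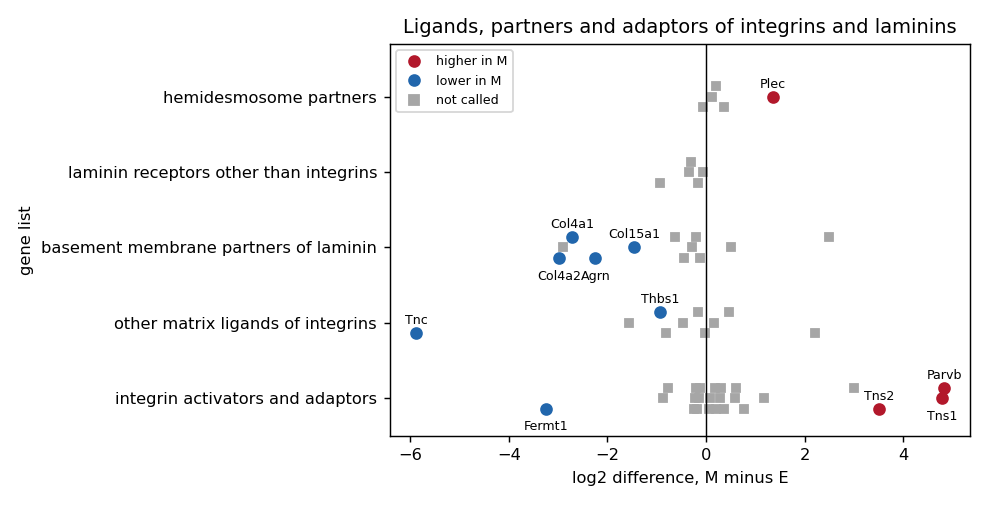
Log2 difference of M minus E for the 56 genes of 5 lists, 1 point per gene, with circles for the 11 genes called by limma and squares for the rest. Tnc lies at -5.88 and Parvb at 4.83, and the vertical spread of points within a list has no meaning.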

How the data were processed

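The table deposited by the authors holds log2 expression levels for 35556 probe sets in M1, M2, E2 and E1, between 2.28 and 14.5. Arrays were exported as CEL files. Partek is named in the labels, with no version. Whether and how background was corrected, arrays normalized and probes summarized is not given in the sources used here. RNA was prepared with a column kit by the methods and with Trizol by the labels. No rescaling was applied.

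The platform annotation listed 21789 probe sets with 1 gene symbol, 1621 with several and 12146 with none. The 23410 with a symbol were tested with limma 3.58.1 in R 4.3.3 (lmFit and eBayes, 2 residual degrees of freedom), for M against E and for M1 against the other lines. The number of arrays limits the precision. A gene is represented by its probe set with a single symbol and the highest mean. Symbols of all 35 genes were checked against RefSeq gene identifiers and 0 differed.

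The genes, lists and rules were chosen with earlier results of these data known. The genes named by rule are those called, those at least 2-fold apart between types or within a type, Itgb1, Lamb1 and Lamc1, and in each list those called and the 3 with the largest difference. Other genes named with values were added after their values were seen, as partners or ligands. The tests were checked on simulated data. The alternative settings were centring on the median, quantile normalization, brighter probe sets alone, a floor at the median, other forms of eBayes and of the annotation filter, other thresholds, each line left out and clone number as a block. Protein sequences were not used here.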

Additional observations from a re-analysis of the deposited data

How the results depend on the processing

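Quantile normalization, median centring, eBayes with trend and robust settings and single-symbol probe sets gave 2 higher and 5 lower calls among the 35 genes. Leaving out a line in turn gave 0 to 5 higher, 0 to 6 lower and 0 to 1879 over all probe sets, 0 to 18 in the 5 lists and, for M1 against the other lines, 0 to 9. Without M1 or without M2, the remaining M line is 1 array, assumed to vary like the E lines, and calls over all probe sets numbered 1761 and 1879. Those fits called the 7 genes, with Itga7, Itga10 and Lama5 besides without M1, and Itgb4 and Itgb5 without M2. With the floor these were 0 higher, 1 lower, 223 over all probe sets and 1 in the lists, and at an adjusted p of 0.1 the count over all probe sets was 1660. M1 and M2 were at least 4-fold apart in 1 gene and E2 and E1 in 0.

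The clone numbers name lines and do not pair them: differences of M1 from M2 and of E1 from E2 had a Pearson correlation of -0.04 across 23410 probe sets, which are not independent. With the number as a replicate block limma called 2 of the 35 genes higher, 3 lower, 4 in the lists and 319 over all probe sets. It kept 4 of the 7 calls, without Itga8, Itgb2 and Itgb6, and added Itga2.

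For 16 genes, 115 of 143 alternative values kept direction and side of the threshold, 23 lost the call and 4 gained it. All 23 losses fell on the 7 called genes. For the other genes a kept side means that they stayed uncalled. Lamc1 took a difference of 0.036 without E1 (range of -0.40 to 0.036 over the lines left out). The cause of these changes was not tested. The arrays give no background level, so low levels carry no order.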
